A study of Mus musculus with 8 samples.

Results

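The genes described here are 10 genes used as markers of microglia, the resident macrophages of the brain. They are the complement genes C1qa, C1qb and C1qc, the receptor genes Trem2, Csf1r and Cx3cr1, the adaptor gene Tyrobp, the lysosomal genes Cd68 and Gpnmb, and Aif1. Each was taken from the array row whose annotation gave exactly 1 gene symbol, and each of the 10 symbols had 1 such row among the 16317 rows of the table. Affymetrix whole-transcript arrays gave the RNA levels of 8 mouse samples. The medulloblastoma group held 4 tumours of adult mice that carried RosaGli1-FLAG c/c, Math1-Cre and Ptc+/- together. The Gli1FLAG GNP group held 2 preparations of cerebellar granule neuron precursors (GNPs), the cells from which this kind of tumour arises, from RosaGli1-FLAG c/c mice crossed with Math1Cre mice and taken at postnatal day 8. The Ptc+/- GNP group held 2 preparations from Ptc+/- mice of the same age. Math1-Cre, active in granule neuron precursors, turns on the FLAG-tagged Gli1 of the Rosa allele, and Ptc+/- animals carry 1 targeted allele of the Hedgehog receptor gene Ptch1. The labels call the samples of a group biological replicates and do not say how many animals went into each.

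These transcripts are typical of microglia rather than of granule neuron precursors. C1q, the recognition molecule that starts the classical complement pathway, is assembled from A, B and C chains, and in the brain microglia are its main source. Trem2 is a lipid-sensing surface receptor of microglia that signals through Tyrobp (also called DAP12), Csf1r is the receptor for the survival factors CSF1 and IL-34, and Cx3cr1 binds the neuronal chemokine fractalkine. Cd68 and Gpnmb are membrane proteins of late endosomes and lysosomes that are abundant in phagocytic cells, and Aif1 encodes IBA1, an actin-binding protein stained to show microglia.

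Tumours were whole tissue and GNPs were a purified cell fraction, so age, preparation, genotype and disease all change together between them and cannot be told apart. In such bulk samples, fewer cells of a type and less RNA per cell cannot be told apart either. The median deposited intensity was 170, 186, 134 and 310 in medulloblastomas 1 to 4, 116 and 109 in Gli1FLAG GNPs, and 283 and 125 in Ptc+/- GNPs. The arrays were therefore quantile normalized, and every level below is log2(intensity + 1) on the normalized scale. Gli1, the switched-on gene, averaged 10.60 ± 0.21 in medulloblastomas (SD, n = 4), 10.14 ± 0.08 in Gli1FLAG GNPs and 9.31 ± 0.10 in Ptc+/- GNPs (SD, n = 2 each). Atoh1, the gene also named Math1 that marks granule neuron precursors, averaged 11.51 ± 0.49, 9.10 ± 0.10 and 9.42 ± 0.01 in the same order of groups. Differences between groups were tested with limma across all 16317 rows. A gene is said to rise or fall where its p-value, adjusted over all rows by the Benjamini-Hochberg method, was under 0.05.

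The 3 C1q chains were higher in every tumour than on any GNP array. Their genes are neighbours on mouse chromosome 4, in the order C1qb, C1qc and C1qa with 0 genes between them in the RefSeq annotation. RefSeq promoter sequences of the assembly GRCm38.p6, 250 bases before to 50 bases after the start of the gene, were at hand for 7 of the 10 genes. Those of C1qb and C1qc are printed because these neighbouring genes moved together. C1qb lies at chr4:136886151-136886450 on the minus strand and C1qc at chr4:136892865-136893164 on the minus strand. Capitals mark a match to the core site of PU.1, the transcription factor of the macrophage lineage.
C1qb promoter: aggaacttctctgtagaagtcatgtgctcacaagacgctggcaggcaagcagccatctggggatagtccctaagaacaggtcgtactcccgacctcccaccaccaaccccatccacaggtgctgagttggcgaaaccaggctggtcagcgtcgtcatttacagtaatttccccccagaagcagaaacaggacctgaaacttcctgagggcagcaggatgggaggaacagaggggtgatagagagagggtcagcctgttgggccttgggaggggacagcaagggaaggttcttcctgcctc
C1qc promoter: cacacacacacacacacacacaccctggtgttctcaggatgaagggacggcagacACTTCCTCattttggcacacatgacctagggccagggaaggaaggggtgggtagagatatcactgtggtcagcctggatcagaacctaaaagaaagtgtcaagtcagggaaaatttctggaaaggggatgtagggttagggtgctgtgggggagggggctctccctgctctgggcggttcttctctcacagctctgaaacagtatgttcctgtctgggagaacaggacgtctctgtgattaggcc

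The PU.1 core was searched as GAGGAAGT on both strands. It was present in 1 of the 7 promoters, that of C1qc, where the match lay on the opposite strand and began 195 bases upstream of the start, and in 3.2% of all 32851 promoters of the same length. The site of the lysosomal regulators MITF, TFEB and TFE3 was searched as TCACNTGA, also on both strands. It was in 0 of the 7, those of Cd68 and Gpnmb included, against 4.18% of all promoters. These matches describe letters in a window and were not set against binding data.

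C1qb, the B chain, measured 10.35, 9.95, 9.33 and 10.61 in medulloblastomas 1 to 4, against 8.45 and 8.03 in Gli1FLAG GNPs and 7.92 and 8.11 in Ptc+/- GNPs. All 4 tumours lay above all 4 GNP arrays, and medulloblastomas 4 and 1 were the highest. The tumours exceeded Ptc+/- GNPs by 2.04 ± 0.35 (log2, SE), which is 4.12-fold (adjusted p = 0.0127). They exceeded Gli1FLAG GNPs by 1.82 ± 0.35, which is 3.53-fold (adjusted p = 0.0236).

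C1qc, the C chain, measured 11.15, 10.46, 10.03 and 11.22 in the tumours, against 8.95 and 8.66 in Gli1FLAG GNPs and 8.91 and 8.52 in Ptc+/- GNPs. The order of the tumours was that of C1qb, and the lowest tumour stood more than 1 log2 unit above the highest GNP array. The log2 difference was 2.00 ± 0.35 from Ptc+/- GNPs (adjusted p = 0.0138) and 1.91 ± 0.35 from Gli1FLAG GNPs (adjusted p = 0.0219). C1qa, the A chain, measured 9.86, 9.40, 9.07 and 10.34 in the tumours, 7.96 and 8.20 in Gli1FLAG GNPs, and 8.20 and 7.85 in Ptc+/- GNPs. It again split tumours from GNPs without overlap, with a log2 difference of 1.64 ± 0.34 from Ptc+/- GNPs (3.12-fold, adjusted p = 0.0215) and 1.58 ± 0.34 from Gli1FLAG GNPs (3-fold, adjusted p = 0.0325).

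**Figure D1:**
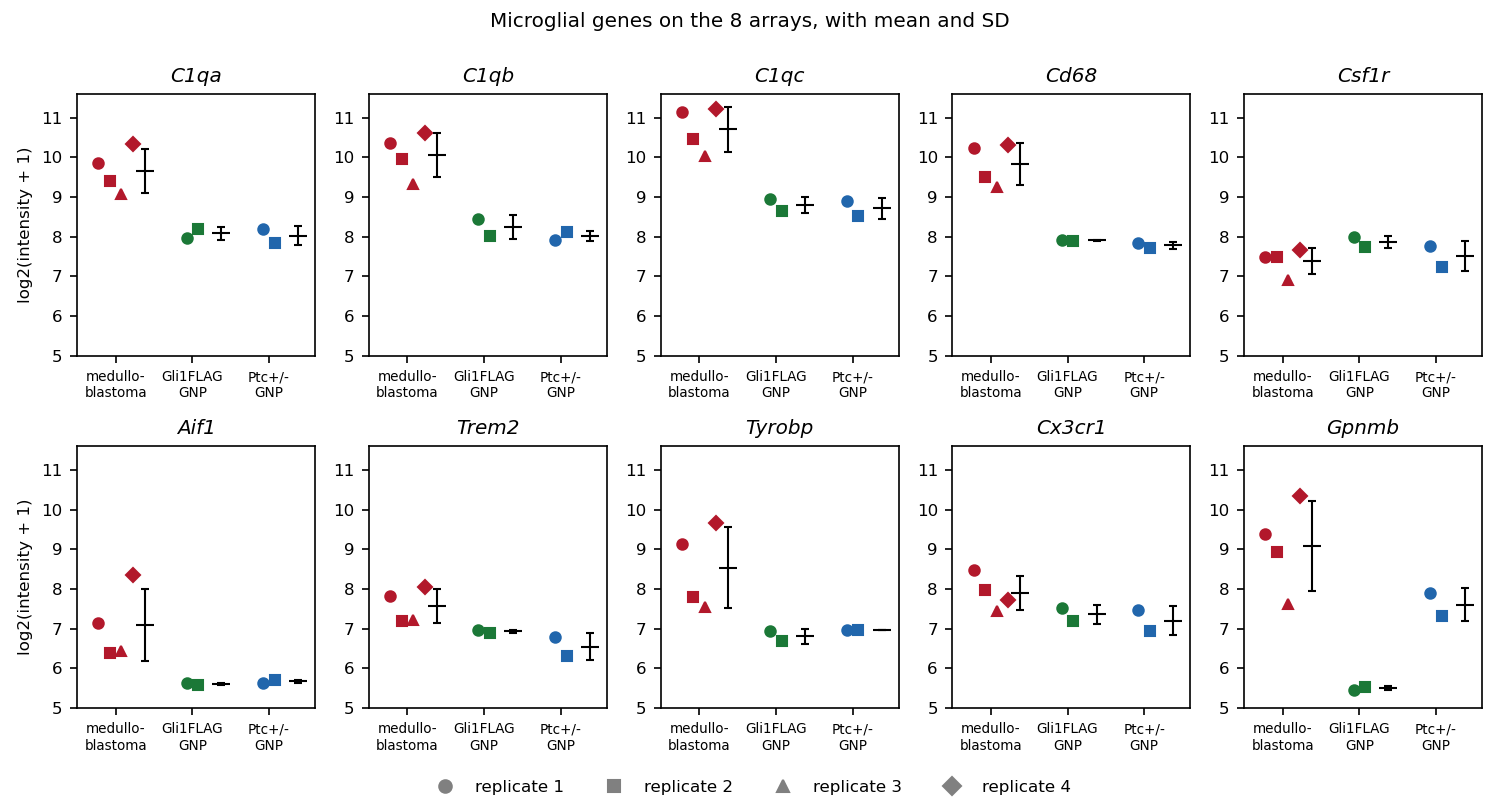
Level of the 10 microglial genes, as log2(intensity + 1) after quantile normalization, on each of the 4 medulloblastoma, 2 Gli1FLAG GNP and 2 Ptc+/- GNP arrays (coloured points, shape by replicate), with group mean and SD beside them (black). In 7 of the 10 panels every tumour lies above every GNP array, while Csf1r, Cx3cr1 and Gpnmb overlap with at least 1 GNP array.

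Trem2 and Tyrobp, the receptor and its signalling partner, were above all GNP arrays in every tumour as well, and neither passed the threshold. Tyrobp measured 9.13, 7.80, 7.55 and 9.68 in medulloblastomas 1 to 4, against 6.95 and 6.67 in Gli1FLAG GNPs and 6.97 and 6.96 in Ptc+/- GNPs. The tumours fell into a high pair, 1 and 4, and a low pair, 2 and 3, so that the SD among them was 1.03. The log2 difference was 1.58 ± 0.58 from Ptc+/- GNPs (adjusted p = 0.105, 95% interval 0.22 to 2.94) and 1.73 ± 0.58 from Gli1FLAG GNPs (adjusted p = 0.103). Trem2 measured 7.81, 7.19, 7.21 and 8.05 in the tumours, 6.96 and 6.90 in Gli1FLAG GNPs, and 6.78 and 6.31 in Ptc+/- GNPs. Medulloblastomas 1 and 4 were again the high pair. Its log2 difference from Ptc+/- GNPs was 1.02 ± 0.29 with an adjusted p of 0.0505, just outside the threshold, and it passed in 10 of 19 alternative analyses (adjusted p 0.0162 to 0.466). From Gli1FLAG GNPs it was 0.63 ± 0.29 (adjusted p = 0.197).

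Csf1r, the receptor on which microglia depend for survival, did not follow the C1q genes. It measured 7.49, 7.48, 6.91 and 7.67 in the tumours, 7.98 and 7.75 in Gli1FLAG GNPs, and 7.77 and 7.24 in Ptc+/- GNPs. The tumours overlapped with Ptc+/- GNPs, and all 4 lay below both Gli1FLAG GNP arrays. The log2 difference from Ptc+/- GNPs was -0.12 ± 0.26 (adjusted p = 0.79), with a 95% interval of -0.71 to 0.48, whose upper bound lies under the difference of each C1q chain. From Gli1FLAG GNPs it was -0.48 ± 0.26 (adjusted p = 0.266, 95% interval -1.08 to 0.12). The gap between the C1qb and Csf1r rows on the same array, which does not depend on a scaling shared by both rows, was 2.43 to 2.94 log2 units in the tumours, 0.27 to 0.47 in Gli1FLAG GNPs and 0.15 to 0.88 in Ptc+/- GNPs.

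Cx3cr1, the fractalkine receptor, measured 8.47, 7.97, 7.45 and 7.72 in the tumours, 7.52 and 7.19 in Gli1FLAG GNPs, and 7.46 and 6.94 in Ptc+/- GNPs. Medulloblastoma 3 lay within the range of the GNP arrays and the other 3 tumours above it. The log2 difference was 0.70 ± 0.30 from Ptc+/- GNPs (adjusted p = 0.152, 95% interval -0.0032 to 1.40) and 0.55 ± 0.30 from Gli1FLAG GNPs (adjusted p = 0.279).

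Cd68, the phagocyte lysosome protein, had the lowest p-value of the 10 genes against either GNP group. It measured 10.25, 9.51, 9.24 and 10.30 in medulloblastomas 1 to 4, against 7.91 and 7.90 in Gli1FLAG GNPs and 7.84 and 7.73 in Ptc+/- GNPs. The 4 GNP arrays lay close together, and every tumour stood more than 1 log2 unit above them. The log2 difference was 2.04 ± 0.32 from Ptc+/- GNPs (4.13-fold, adjusted p = 0.0104) and 1.92 ± 0.32 from Gli1FLAG GNPs (3.78-fold, adjusted p = 0.0161).

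Gpnmb, a lysosomal glycoprotein of lipid-laden macrophages that melanocytes and osteoclasts also make, was the only one of the 10 with an unadjusted p under 0.05 between the GNP groups. It measured 9.39, 8.93, 7.62 and 10.36 in the tumours, 5.45 and 5.52 in Gli1FLAG GNPs, and 7.90 and 7.31 in Ptc+/- GNPs. Medulloblastoma 3 fell between the Ptc+/- GNP arrays, and both Gli1FLAG GNP arrays lay below all others. The tumours exceeded Gli1FLAG GNPs by 3.59 ± 0.65 on the log2 scale (12-fold, adjusted p = 0.0208). From Ptc+/- GNPs the difference was 1.47 ± 0.65 and did not pass (adjusted p = 0.161, 95% interval -0.048 to 2.99). Without medulloblastoma 3 it was 1.95 (adjusted p = 0.0293).

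Aif1, the IBA1 gene, measured 7.14, 6.39, 6.44 and 8.34 in the tumours, 5.62 and 5.58 in Gli1FLAG GNPs, and 5.63 and 5.70 in Ptc+/- GNPs. Every tumour lay above every GNP array, and medulloblastoma 4 stood 1.20 log2 units above the next. The log2 difference was 1.41 ± 0.51 from Ptc+/- GNPs (adjusted p = 0.101) and 1.48 ± 0.51 from Gli1FLAG GNPs (adjusted p = 0.112). Without medulloblastoma 4 the difference from Ptc+/- GNPs was smaller, at 1.03, and the adjusted p was 0.0385. In GNPs this row was dim, with 28.7% to 30.1% of rows below it on the same array.

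Counted over the 10 genes, 4 rose in medulloblastomas relative to Ptc+/- GNPs (C1qa, C1qb, C1qc and Cd68), 0 fell and 6 did not pass. Of all 16317 rows, 7.54% rose and 8.92% fell in that comparison. The median log2 difference was 1.52 over the 10 genes and 0.01 over all rows. Relative to Gli1FLAG GNPs, 5 rose (the same 4 and Gpnmb), 0 fell and 5 did not pass, against 4.65% of all rows that rose and 5.63% that fell, with a median of 1.66 over the 10 genes and 0.00 over all rows. The tumours are the same in both comparisons. In 7 of the 10 genes every tumour lay above every GNP array, as was so for 14.7% of all rows. The 10 genes were chosen with earlier results of these data known, so these contrasts with all rows are not independent of that choice.

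These counts rested on the pair of GNP arrays in each comparison. With Ptc+/- GNP replicate 1 left out, 0 of the 10 passed against Ptc+/- GNPs, with log2 differences of 1.82 to 2.24 and adjusted p of 0.0965 to 0.122 for the 4 genes. With replicate 2 left out, 0 passed, at 1.46 to 2.13 and 0.0681 to 0.127. Against Gli1FLAG GNPs 0 passed without Gli1FLAG GNP replicate 1 (adjusted p 0.161 to 0.248 for the 5 genes) or without replicate 2 (0.136 to 0.186). Those fits give the remaining GNP array the spread estimated from the other groups. Without medulloblastoma 1, C1qa missed the threshold against Ptc+/- GNPs (adjusted p = 0.0504). Against Gli1FLAG GNPs, only C1qc and Cd68 passed without that tumour, while C1qa had an adjusted p of 0.0725, C1qb of 0.0553 and Gpnmb of 0.0524.

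**Figure D2:**
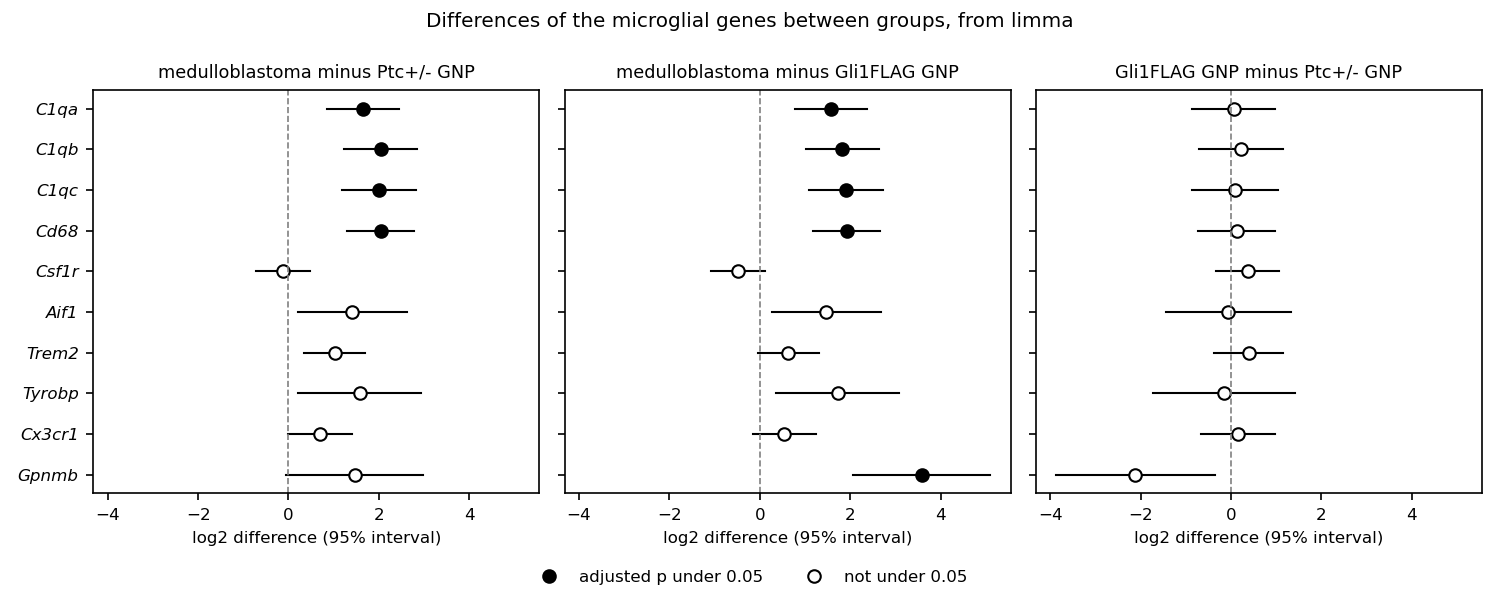
Log2 difference of each of the 10 genes with its 95% interval from limma, for medulloblastoma minus Ptc+/- GNP (left), medulloblastoma minus Gli1FLAG GNP (middle) and Gli1FLAG GNP minus Ptc+/- GNP (right). Filled points have an adjusted p under 0.05, which holds for 4, 5 and 0 genes, and Csf1r is the one gene whose difference is below 0 in both tumour comparisons.

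Between the GNP genotypes no microglial gene passed the test. In limma, 0 of the 10 passed in Gli1FLAG GNPs relative to Ptc+/- GNPs, as did 0.0% of all rows. Gpnmb alone of the 10 had an unadjusted p under 0.05, as did 525 rows (3.22%) in all. Its deposited intensities were 24 and 25 in Gli1FLAG GNPs and 379 and 108 in Ptc+/- GNPs, and its log2 difference was -2.12 ± 0.75 (adjusted p = 1, 95% interval -3.87 to -0.37). The Y-linked gene Eif2s3y differed between the same arrays, with levels of 4.54 and 4.12 in Gli1FLAG GNPs and 8.99 and 9.01 in Ptc+/- GNPs, so sex and genotype cannot be told apart between the GNP groups. Tumours 1, 2 and 4 were at 8.32 to 8.97, so the comparison of medulloblastomas with Gli1FLAG GNPs differs in this gene too, and its part there was not tested. The other 9 genes had log2 differences of -0.15 (Tyrobp) to 0.39 (Trem2), and the 95% interval for C1qb ran from -0.71 to 1.15.

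The spread among the tumours depended on the gene. The SD was larger over the 4 tumours than over the 2 Gli1FLAG GNP arrays for all 10 genes, and larger than over the 2 Ptc+/- GNP arrays for 9, all but Csf1r (SD 0.33 in medulloblastomas and 0.38 in Ptc+/- GNPs). These differences in spread were not tested. The range over the 4 tumours was 0.77 log2 units for Csf1r, the smallest, and 2.73 for Gpnmb, the largest, while the gap between the 2 arrays of a GNP group was at most 0.43 in Gli1FLAG GNPs and 0.60 in Ptc+/- GNPs, and a range over 4 arrays is wider than a gap between 2 by construction. Medulloblastoma 4 was the highest tumour for 9 of the genes and medulloblastoma 1 for Cx3cr1. Medulloblastoma 3 was the lowest for 8 and medulloblastoma 2 for Aif1 and Trem2. Medulloblastoma 3 also stood apart in Eif2s3y, at 4.55 against 8.32 to 8.97 in the other 3 tumours, and the part of sex in the order of the tumours was not tested. Without medulloblastoma 3 the 4 genes that passed against Ptc+/- GNPs and the 5 that passed against Gli1FLAG GNPs still passed. The order 4, 1, 2, 3 from high to low was found in 7 of the 10 genes and in 6.39% of all rows. Over all rows, medulloblastoma 4 was the highest tumour in 28.1% and medulloblastoma 3 the lowest in 24%. Centred on each gene's mean over the 8 arrays, the median of the 10 genes was 1.13, 0.46, 0.07 and 1.48 in medulloblastomas 1 to 4, -0.75 and -0.85 in Gli1FLAG GNPs, and -0.69 and -0.80 in Ptc+/- GNPs.

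Medulloblastoma 4 also had the highest deposited median intensity of the tumours, at 310, and medulloblastoma 3 the lowest, at 134. Medulloblastomas 1 and 2 had 170 and 186. The part of array brightness in the order of the tumours was not tested. The summed normalized intensity of the 10 genes on the linear scale was 7842, 5169, 3739 and 9631 in medulloblastomas 1 to 4. Astrocyte markers summed to 3993, 7440, 858 and 5367 and oligodendrocyte markers to 4193, 6637, 2632 and 3469 in the same tumours, with medulloblastoma 2 the highest for both. Endothelial markers summed to 1038 to 1194 in all 4. Medulloblastoma 3 was the lowest for the microglial, astrocyte and oligodendrocyte sums alike, and the highest for the endothelial sum. The full order of the tumours by microglial genes was still not that of the other brain cell lists.

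**Figure D3:**
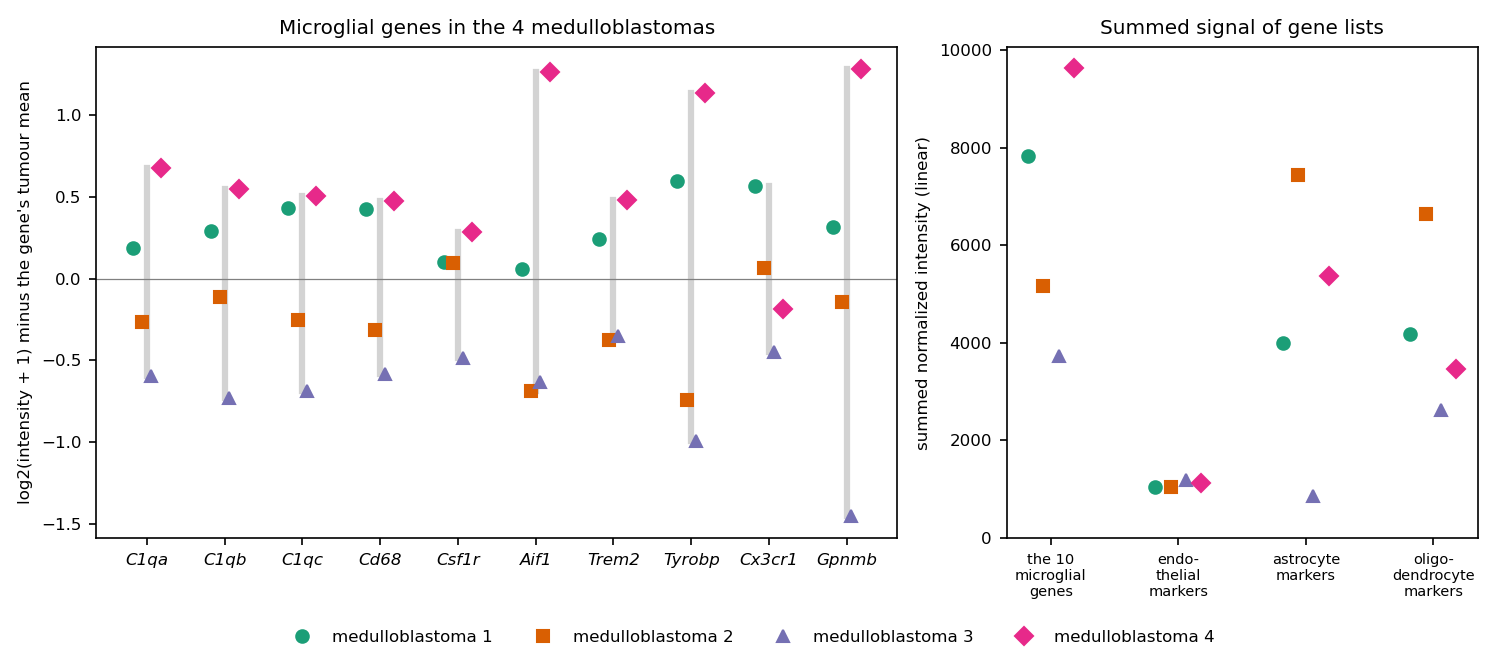
Left, each of the 10 genes in the 4 medulloblastomas, as log2(intensity + 1) minus the gene's mean over the tumours (grey bars span the range). Right, summed normalized linear intensity of the 10 genes and of 3 marker lists in the same tumours, where the microglial sum is 9631 in medulloblastoma 4 and 3739 in medulloblastoma 3.

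Most genes that work with these receptors did not pass. Of 25 listed ligands, partners and signalling genes, 21 were measured, and relative to Ptc+/- GNPs 4 rose, 2 fell and 15 did not pass, where 7.54% of all rows rose and 8.92% fell. The median log2 difference was 0.09. Csf1, a ligand of Csf1r, fell by 1.31 (adjusted p = 0.0313), and Il34, the other ligand, differed by 0.31 and did not pass. Fcer1g, an immunoreceptor adaptor akin to Tyrobp, rose by 1.24 (adjusted p = 0.0367), as did Plxna1, a semaphorin receptor, by 0.87 (adjusted p = 0.0305), and Apoe, a lipid carrier that TREM2 binds and that astrocytes also make, by 1.00 (adjusted p = 0.0492). Of 19 alternative analyses, Fcer1g passed in 11, Plxna1 in 12 and Apoe in 8. Tfec, a relative of Mitf, rose by 0.86 on a dim row with at most 11.9% of rows below it on any array, and Adam10, the protease that sheds TREM2, fell by 0.68. Adam10 was picked after its values were seen. Cx3cl1, the ligand of Cx3cr1, differed by 1.55 and Spi1, which encodes PU.1, by 0.57, and neither passed.

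Most measured complement genes beside the C1q chains did not pass. Of 32 further complement genes 20 were measured, and relative to Ptc+/- GNPs 0 rose, 4 fell and 16 did not pass, with a median log2 difference of -0.01. Of the 20, 10 had a difference above 0, and 6 were under the 25th percentile on all 8 arrays. In that comparison 7.54% of all rows rose and 8.92% fell. Those that fell were Cd93 by 2.12 (adjusted p = 0.0228), Cd55 by 1.51 (adjusted p = 0.0395), Masp1 by 1.39 (adjusted p = 0.0142) and Cr1l by 0.88 (adjusted p = 0.0126). Cd55 passed in only 7 of 18 alternative analyses, against 18 of 19 for Cd93, 15 of 18 for Masp1 and 16 of 19 for Cr1l. Cd55 and Cr1l encode regulators that limit complement on cell surfaces, Masp1 a protease of the lectin pathway, and Cd93 a receptor that endothelial cells express. Endothelial markers moved the same way: 6 of 11 measured fell and 0 rose, and their summed intensity was 1038 to 1194 in medulloblastomas, 3052 to 3062 in Gli1FLAG GNPs and 1949 to 4911 in Ptc+/- GNPs. The part of endothelium in the complement result was not tested.

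Of 18 measured genes of resting, homeostatic microglia, 2 rose, 4 fell and 12 did not pass relative to Ptc+/- GNPs, where 7.54% of all rows rose and 8.92% fell, with a list median of 0.15. Siglech, a sialic acid-binding lectin of microglia, measured 3.56 ± 0.45 in medulloblastomas (SD, n = 4), 5.82 ± 0.27 in Gli1FLAG GNPs and 5.17 ± 0.15 in Ptc+/- GNPs (SD, n = 2 each), and fell by 1.60 relative to Ptc+/- GNPs (adjusted p = 0.0154). Its row was dim, with 4.13% to 11.8% of rows below it in the tumours and 22.6% to 25.1% in Ptc+/- GNPs, and the filter on dim rows removed it, so the size of its fall is uncertain. Tgfbr1, a TGF-beta receptor chain that many cells make, fell by 1.55 (adjusted p = 0.0207), Rhob, a small GTPase also found in most cells, by 1.11 (adjusted p = 0.00402), and Gpr34, a lysophospholipid receptor, by 1.21 (adjusted p = 0.0495). Selplg, a ligand of selectins, rose by 0.83 (adjusted p = 0.0206), and Ltc4s, a leukotriene synthase, by 0.82 (adjusted p = 0.039). P2ry12, the ADP receptor of resting microglia, averaged 7.03 ± 0.51 in medulloblastomas, 8.31 ± 0.14 in Gli1FLAG GNPs and 7.63 ± 0.19 in Ptc+/- GNPs. It fell relative to Gli1FLAG GNPs (by 1.28, adjusted p = 0.045), and its log2 difference from Ptc+/- GNPs was -0.60 (adjusted p = 0.227). Of the 18 genes, 0 rose and 4 fell relative to Gli1FLAG GNPs, with a list median of 0.11. In that comparison 4.65% of all rows rose and 5.63% fell. Gpr34, Ltc4s and P2ry12 were picked after their values were seen.

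Of 21 measured genes of disease-associated microglia, the state seen around plaques and in damaged tissue, 3 rose and 1 fell relative to Ptc+/- GNPs. The list median was 0.57, and 7.54% of all rows rose and 8.92% fell in that comparison. Timp2, a protease inhibitor, rose by 1.78 (adjusted p = 0.0188) and Ctsz, the lysosomal protease cathepsin Z, by 1.22 (adjusted p = 0.0262), beside Apoe, and Csf1 fell. Timp2 and Apoe are made by several brain cell types. Of 54 measured lysosome genes, 5 rose and 2 fell, against the same 7.54% and 8.92% of all rows, with a median of 0.13. Grn, which encodes progranulin, rose by 0.95 (adjusted p = 0.0124), Hexa, a hexosaminidase chain, by 0.88 (adjusted p = 0.0182), and Naglu, which degrades heparan sulfate, by 0.80 (adjusted p = 0.0195), beside Ctsz. Tfe3, a transcription factor for lysosomal genes, rose by 0.58, while Gla and Manba, a galactosidase and a mannosidase, fell by 0.93 and by 0.99. These 3 were picked after their values were seen. The median over the lysosome list thus lay close to that of all rows, unlike Cd68.

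**Figure D4:**
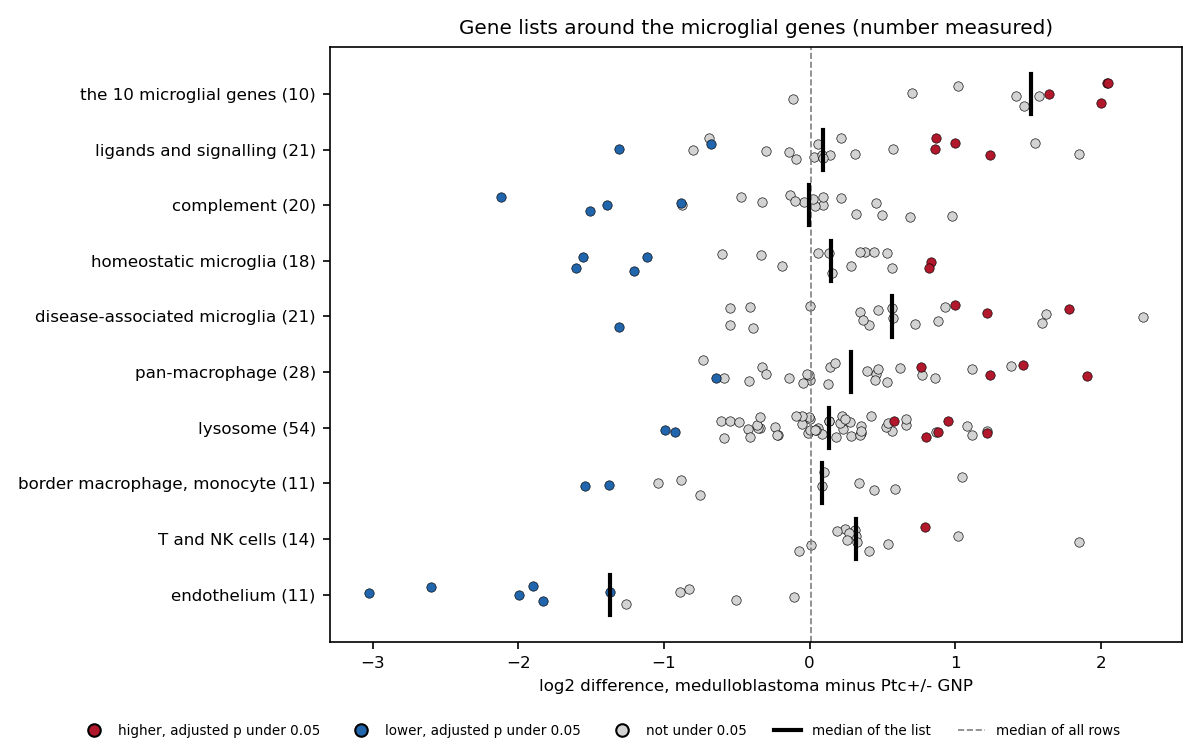
Log2 difference of each measured gene, medulloblastoma minus Ptc+/- GNP, for the 10 microglial genes and 9 other lists (rows, with the number measured). Points are coloured where the adjusted p was under 0.05, black bars are list medians and the dashed line is the median of all rows, and the microglial median of 1.52 lies to the right of every other list shown, endothelium to the left at -1.37. The genes and lists were chosen with earlier results of these data known.

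Among genes shared by macrophages of many tissues, most did not pass. Of 28 measured, 4 rose and 1 fell relative to Ptc+/- GNPs, with a median of 0.28. In that comparison 7.54% of all rows rose and 8.92% fell. Cybb and Cyba, the catalytic and the partner subunit of the phagocyte NADPH oxidase, rose by 1.90 (adjusted p = 0.0171) and by 1.46 (adjusted p = 0.0352), and Cd300a, an inhibitory receptor, by 0.76 (adjusted p = 0.0188), beside Fcer1g. The filter on dim rows removed Cybb and Cd300a. Coro1a, an actin regulator of leukocytes that neurons also make, fell by 0.64 and was picked after its values were seen. The summed intensity of this list was 3284 to 6518 in medulloblastomas, 3245 to 3453 in Gli1FLAG GNPs and 2949 to 3645 in Ptc+/- GNPs, and medulloblastoma 3 lay within the range of the GNP arrays.

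Markers of other cell types that a tumour or a cell fraction could hold were read beside these genes. Relative to Ptc+/- GNPs, 7.54% of all rows rose and 8.92% fell. Of 11 measured markers of border-associated macrophages and monocytes, 0 rose and 2 fell, Lyve1 by 1.54 and Cd36 by 1.38, both on dim rows in the tumours, and the sum of the list was 455 to 727 in medulloblastomas, 460 to 522 in Gli1FLAG GNPs and 471 to 735 in Ptc+/- GNPs. Of 14 T and NK cell markers 1 rose, Cd4 by 0.80 (adjusted p = 0.0205), and 7 were under the 25th percentile on all 8 arrays. Their sum was 556 to 1062 in medulloblastomas, 371 to 446 in Gli1FLAG GNPs and 365 to 391 in Ptc+/- GNPs. B cell markers (6 measured) and neutrophil markers (9 measured) had 0 genes that passed against either GNP group, and none of the listed genes was deposited at 0. However, 2 of the B cell and 6 of the neutrophil markers were under the 25th percentile on all 8 arrays, so a change could be missed. Their sums were 221 to 347 and 213 to 311 in medulloblastomas, 191 to 198 and 227 to 238 in Gli1FLAG GNPs, and 187 to 191 and 220 to 258 in Ptc+/- GNPs. Of 11 melanocyte and osteoclast markers, cells that also make Gpnmb, 1 rose (Tyr) and 1 fell (Tyrp1), both on dim rows. On all 8 arrays 7 of the 11 were under the 25th percentile. The sum was 297 to 364 in medulloblastomas, 281 to 301 in Gli1FLAG GNPs and 309 to 310 in Ptc+/- GNPs. Of 4 measured erythroid markers 0 rose and 1 fell (Alas2, by 1.24, adjusted p = 0.0263), and the sum was 104 to 139 in medulloblastomas, 132 to 133 in Gli1FLAG GNPs and 181 to 188 in Ptc+/- GNPs. Of 10 measured fibroblast and meningeal markers 0 rose and 1 fell. Their sum was 1180 to 1328 in medulloblastomas, 1896 to 1935 in Gli1FLAG GNPs and 1162 to 3168 in Ptc+/- GNPs. The part of these cells in the results was not tested.

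Some calls rested on dim rows. The filter on dim rows asked for a rank above the 50th percentile on at least 2 arrays. It kept 35 of the 51 genes named by rule that passed against Ptc+/- GNPs. Beside rows called dim elsewhere in the text, it removed Cybb, Cd300a, Csf1, Cd55, Masp1, Cd4, Alas2, Apoa2 and Clec12a. The size of their differences is uncertain. Most calls on these lists shared the dependence on the Ptc+/- GNP arrays. Of 51 genes named by rule that passed against Ptc+/- GNPs, C1qa, C1qb, C1qc and Cd68 included, 49 did not pass without Ptc+/- GNP replicate 1 and 40 did not without replicate 2.

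The genes outside the 10 whose profile over the 8 arrays came closest to their median profile were Cyba, Rftn2, Tmem132e, Spats2l, Clec12a and Gpc5. The root mean square difference from that profile was 0.16 log2 units for Cyba and 0.23 to 0.26 for the other 5. Within the 10 it was 0.14 for C1qa and 0.24 to 0.27 for C1qb, C1qc, Cd68, Aif1 and Tyrobp, but 0.44 for Trem2, 0.61 for Cx3cr1, 0.95 for Gpnmb and 0.98 for Csf1r. Cyba measured 8.56, 8.32, 7.45 and 8.88 in medulloblastomas 1 to 4, against 6.62 and 6.76 in Gli1FLAG GNPs and 6.97 and 6.71 in Ptc+/- GNPs. Clec12a, an inhibitory lectin receptor of myeloid cells, measured 5.81, 4.43, 4.82 and 5.83 in the tumours, against 3.57 and 3.49 in Gli1FLAG GNPs and 3.66 and 3.31 in Ptc+/- GNPs. Likeness was measured over 8 arrays that share their groups, so any gene that is higher in tumours by a similar amount comes close.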

How the data were processed

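Per the labels' protocols, Trizol RNA of 8 mouse samples was depleted of ribosomal RNA, amplified as cDNA, biotin-labelled and hybridized to Affymetrix whole-transcript arrays. The authors deposited 1 linear intensity for each of 16317 transcript clusters, as whole numbers. The submitters' processing notes name the build mm8; how background and probes were handled is not given in the sources used here. Of the rows, 14551 had 1 gene symbol, 1146 several and 620 none.

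Because array medians differed 2.84-fold, intensities were quantile normalized over the 8 arrays (1 value below 0 was set to 0) and log2(intensity + 1) was tested, which understates changes of dim genes. Limma 3.58.1 in R 4.3.3 fitted 3 group means to all arrays (lmFit, eBayes, prior degrees of freedom 2.45, residual 5), two-sided, with Benjamini-Hochberg adjustment over all rows. Tables were made with Python 3.11.15 and pandas 2.3.3. The fit was tested on simulated data. The number of arrays limits the precision, the normalization and variance model also move the calls, and there is no detection call.

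Members and gene lists were chosen with earlier results of these data known. All 10 members are named. From each list up to 4 genes with the lowest p against Ptc+/- GNPs were named by rule, with all complement genes past the threshold. Cx3cl1, Csf1, Il34, Spi1 and the 6 genes closest in profile were added. The text prints the genes named by rule only in part. Alternatives were other normalizations, offset, filter, row choice, variance models, array weights, pooled GNP groups, a replicate block and leaving out each array. Replicate numbers are shared by 2 samples of each group. Deviations from the group mean were close to uncorrelated between samples of the same number (correlations from -0.073 to 0.0088). In a group of 2 arrays the deviations are equal and opposite, so these values cannot decide whether samples were paired.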

Additional observations from a re-analysis of the deposited data

Results flagged for a closer look

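Among 87 named genes tested for 1 tumour far from the others, 1 was set apart by the gap to its nearest value. Kdr, a VEGF receptor of endothelium, measured 6.91 in medulloblastoma 4 and 6.03 to 6.12 in the other 3 tumours. The gap was 0.891 of the whole range, above Dixon's 95% critical value for 4 samples, and chance alone sets apart about 1 in 20 groups. None of the 10 microglial genes was set apart in this way, although medulloblastoma 4 was the highest tumour for 9 of them.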

How the results depend on the processing

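Of the 10 microglial genes, 4 passed against Ptc+/- GNPs, and this count was 8 with array weights, 8 with both GNP groups pooled, and 0 to 6 when 1 array was left out. Against Gli1FLAG GNPs 5 passed, and the count was 8 with array weights, 8 with pooled GNPs, and 0 to 6 with 1 array left out. No gene that passed changed its direction under any alternative that was run. C1qb, C1qc and Cd68 passed against Ptc+/- GNPs in 17 of 19 alternatives each, all but those without 1 Ptc+/- GNP array, and C1qa in 15. With no normalization between arrays the C1qa call was lost (adjusted p = 0.166), and Gpnmb passed between GNP groups as 1 gene of the 10 (adjusted p = 0.0267). Csf1r passed in 0 of 19 against either GNP group, and its log2 difference ranged from -0.38 to 0.15 against Ptc+/- GNPs and from -0.59 to 0.27 against Gli1FLAG GNPs. Over all rows, 2687 passed against Ptc+/- GNPs, 1239 with only the arrays compared, 323 with no normalization, and 128 to 2898 with 1 array left out. Against Gli1FLAG GNPs 1677 passed, 832 with only the arrays compared, 1066 with the replicate block, 4485 with array weights, 3812 with pooled GNPs, and 62 to 1980 with 1 array left out. Between GNP groups 0 rows passed, 2 with only the arrays compared, 1 each with the replicate block, cyclic loess, dim rows left out, and trend and robust variance, 9 with no normalization, 3 with array weights, and 0 to 4 with 1 array left out. The cause of these shifts was not tested, except that leaving out arrays leaves fewer samples. The replicate block, which can use only medulloblastomas 1 and 2, gave 6 of the 10 genes against Ptc+/- GNPs (Cx3cr1 and Gpnmb added), 5 against Gli1FLAG GNPs and 0 between GNP groups. Whether the replicate numbers pair the samples is not known. Aif1 was removed by the filter on dim rows. With only 1 row per symbol in the fit, Trem2 was added against Ptc+/- GNPs (adjusted p = 0.0479). None of the 10 genes had a further row of its own, so replacing a gene's row by another gave no value.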

Other observations

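Of 12 measured genes of the oligodendrocyte list 3 rose, 0 fell and 9 did not pass relative to Ptc+/- GNPs, where 7.54% of all rows rose, and the median log2 difference was -0.20. Olig1, a lineage transcription factor, measured 9.37 ± 0.72 in medulloblastomas (SD, n = 4), 7.66 ± 0.16 in Gli1FLAG GNPs and 6.98 ± 0.22 in Ptc+/- GNPs (SD, n = 2 each), and rose by 2.39 relative to Ptc+/- GNPs (adjusted p = 0.0139). Olig2 rose by 1.59 (adjusted p = 0.0147) and Pdgfra, the growth factor receptor of these precursors, by 1.16 (adjusted p = 0.0183). Cspg4, another gene of these precursors, differed by 0.92 and did not pass (adjusted p = 0.0842). Olig1, Olig2 and Pdgfra passed against Gli1FLAG GNPs as well.

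Of 10 measured astrocyte markers 0 passed against either GNP group, with a median log2 difference of -1.56 from Ptc+/- GNPs. Of all rows, 7.54% rose and 8.92% fell relative to Ptc+/- GNPs, and 4.65% rose and 5.63% fell relative to Gli1FLAG GNPs. The astrocyte sum ranged from 858 to 7440 over the tumours. Of 14 measured genes of other organs 2 rose and 2 fell relative to Ptc+/- GNPs, against 7.54% and 8.92% of all rows. Prm1, a sperm protamine, rose by 1.56 (adjusted p = 0.0183) and Apoa2, a liver apolipoprotein, by 1.04 (adjusted p = 0.0291). Sftpc, a lung surfactant protein, fell by 3.03 (adjusted p = 0.00181) and Cpa1, a pancreatic protease on a dim row, by 0.83 (adjusted p = 0.0331).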
